A study of Mus musculus with 30 samples.

Results

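The genes described here carry a new protein into the endoplasmic reticulum (ER), glycosylate it and move it by vesicles to the Golgi and back. The list names 53 genes: the signal recognition particle and its receptor, the Sec61 translocon with its helpers, signal peptidase, oligosaccharyl transferase, enzymes that supply its glycan, the COPII and COPI coats, cargo receptors, KDEL receptors and the Golgi tether Golgb1. The list was chosen with earlier results of these data known, so counts of called members describe it and are not independent evidence. Its members were then found by gene symbol in the platform's annotation, among 19937 genes with a probe set of their own. Of the 53, 50 had at least 1 probe set that carries their symbol alone. Srp54a and Sec61g were listed only on probe sets shared with other genes, and Kdelr2 is named only. The tests of the first experiment took in all 50 and those of the second 48, since Sec24d and Kdelr3 lay too low there.

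The cells came from mesenteric lymph nodes of CeGFP BALB/c mice 10 days after infection with the worm Nippostrongylus brasiliensis, an infection that gives a strong IgE and IgG1 response. In CeGFP mice IRES-GFP is knocked into the 3'UTR of membrane IgE, so GFP marks IgE cells, and also IgG1 cells whose other, non-productive heavy chain chromosome has rearranged to epsilon. All groups share this strain, allele and infection. The first experiment held 18 arrays: naive B cells (B220+ CD95- CD138-, without IgG1 or IgE, n = 3), GFP- IgG1 germinal centre (GC) cells (n = 3), GFP+ IgG1 GC cells (n = 3), IgE GC cells (GFP+, n = 3), GFP+ IgG1 plasma cells (n = 2) and IgE plasma cells (GFP+, n = 4). GC cells were gated as B220+ CD95+ CD138- and plasma cells as CD95+ CD138+. The second held 12 arrays of IgG1 GC cells, sorted as dark zone (CXCR4 high, CD86 low) or light zone (CXCR4 low, CD86 high) and as GFP+ or GFP-, with n = 3 in each of the 4 groups. Each array was hybridised from a pool of 3 mice from its own sort, so the n are pools and not single animals. The naive cells were taken from infected mice too, and the IgG1 plasma cells, all GFP+, are a subset of IgG1 plasma cells.

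A secreted protein starts at the ribosome, where the signal recognition particle binds its signal peptide and docks at the SRP receptor. The chain then enters the ER through Sec61, signal peptidase removes the signal and oligosaccharyl transferase attaches a glycan. COPII vesicles carry the folded protein to the Golgi, and COPI vesicles bring escaped ER residents and receptors back. Plasma cells secrete antibody at a very high rate, and an enlarged ER is their textbook mark. Part of this gene set is known to be driven in such cells by XBP1 and ATF6, transcription factors of the unfolded protein response.

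The promoters of the members were searched for DNA elements those factors are known to bind. RefSeq (GRCm38.p6) gave a promoter, 250 bases before to 50 after the start, for 42 of the 53 members. The UPR element TGACGTGG, searched on both strands, was in the promoters of 4 of the 42 (9.52%), against 193 of 27025 genes in the whole promoter table (0.714%) and 5 of 103 further genes of the same pathway (4.85%). The ER stress element, CCAAT and CCACG with any 9 bases between them, was in none of the 42 (0.137% of all genes), nor was ER stress element II, ATTGG and CCACG with any 1 base between them (0.0444%). The 4 genes with a match were Copb1 and Copb2, subunits of the COPI coat, Kdelr3, a receptor that returns ER residents, and Sec24d, a cargo-binding COPII subunit. Their sites are printed as 30 bases with the motif in capitals.
Copb1: aagtccttggcTGACGTGGaagggggcggg
Copb2: ggccaacccacTGACGTGGaacttccggga
Kdelr3: tggccgcgcggTGACGTGGcggggcggcca
Sec24d: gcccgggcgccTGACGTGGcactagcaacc
They lie at chr7:114254690-114254719 (plus strand), chr9:98563713-98563742 (minus strand), chr15:79516367-79516396 (minus strand) and chr3:123267459-123267488 (plus strand). In each the motif begins within 30 bases before the start site. A match describes letters only and does not show that a factor binds there. The 4 genes did not move alike, as the values of Sec24d and the COPI genes show further on.

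All levels are log2 signals from robust multi-array averaging, so a difference of 1 is a doubling, and the call of a gene needs an adjusted p below 0.05 in limma. Array medians were 5.28 to 5.47. Arrays of 1 group correlated at 0.891 to 0.975, and naive replicate 1 and GFP+ IgG1 GC replicate 3 stood apart from their groups. The labels held up against the markers. The 6 plasma cell markers were all above the array median in both plasma cell groups (mean 10.38 to 10.64 over the IgE arrays), the B cell markers averaged 11.44 or more on every naive and GC array against 9.19 to 9.76 in plasma cells, and GC markers averaged 10.03 to 10.44 on the GC arrays of the first experiment against 5.40 to 5.97 on naive arrays. Basophil and mast cell markers, and neutrophil and eosinophil markers, were above the array median throughout a group in no group.

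**Figure D1:**
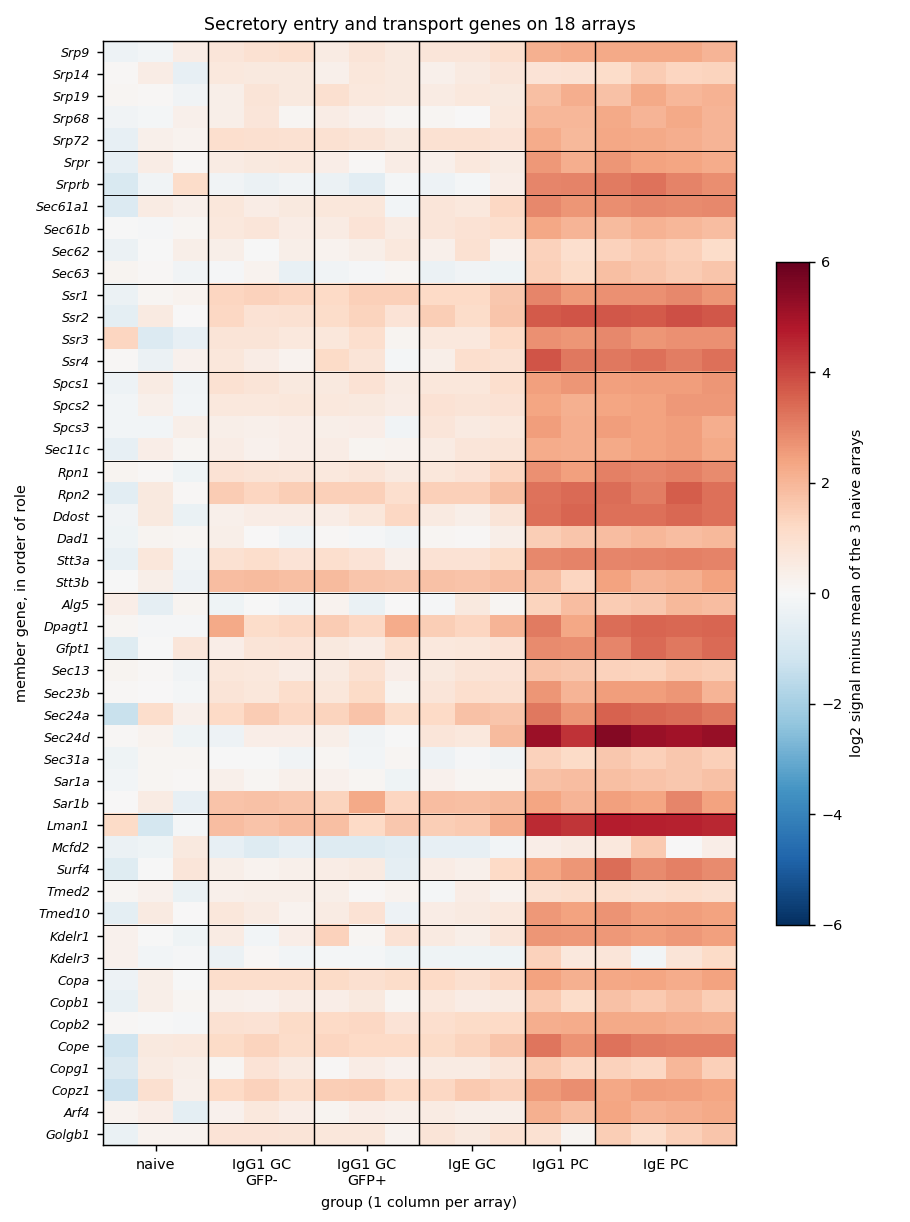
Colour shows the log2 signal of each of 50 members (rows, in order of role) on each of the 18 arrays of the first experiment (columns), minus the mean of the 3 naive arrays. The 6 plasma cell columns at the right are the darkest for most rows, GC columns are intermediate, and Stt3b and Sar1b are about as dark in GC as in plasma cells.

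The step from IgE GC cell to IgE plasma cell raised nearly the whole list. Of the 50 members, 48 rose and none fell, while 10.2% of the 12098 genes tested were called higher and 23.6% in either direction. Kdelr3 is among them, although it entered the test only through plasma cell arrays and so had to differ. Without it 47 of 49 rose. The median difference over the members was 1.71, with a range from 0.47 to 4.14, against -0.03 over all genes. In 41 members the difference was at least 1. For all 50, every IgE plasma cell array lay above every IgE GC array, which held for 15.2% of all genes. The median level of the members was 8.63 to 9.05 on the GC arrays and 10.31 to 10.59 on the plasma cell arrays. In such sorted bulk samples a higher share of strongly secreting cells and more transcript per cell cannot be told apart, and the normalization hides a change in total RNA per cell.

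The signal recognition particle binds the signal peptide as it leaves the ribosome. All 5 measured subunits rose, with a median difference of 1.40. The largest difference was that of Srp68, a scaffold protein that with Srp72 holds the particle's RNA. Srp68 read 8.02, 7.90 and 8.53 on the IgE GC arrays and 10.15, 9.94, 10.17 and 9.96 on the IgE plasma cell arrays, a difference of 1.90 (SE 0.19, adjusted p = 9.43e-07). The 4 plasma cell arrays lay close together and well above the 3 GC arrays. Srp14, which with Srp9 forms the part of the particle that delays elongation, had the smallest difference. Its values were 8.99, 9.19 and 9.39 in GC cells and 9.77, 10.18, 9.98 and 10.03 in plasma cells (0.80, SE 0.19, adjusted p = 0.00509). The groups did not overlap, but the gap was narrow.

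Both subunits of the SRP receptor, the docking site on the ER membrane, rose. Srprb, the membrane-anchored beta subunit, stood at 7.10, 7.29 and 7.77 in IgE GC cells and at 10.51, 10.63, 10.39 and 10.18 in IgE plasma cells. That is a difference of 3.04 (SE 0.32, adjusted p = 1.97e-06), or 8.22-fold, the second largest among the members. On the naive arrays it ran from 6.49 to 8.50, so that naive and GC cells overlapped. Srpr, the alpha subunit that meets the particle, moved from 7.76, 8.09 and 7.96 to 10.10, 9.85, 9.82 and 9.67 (1.92, SE 0.20, adjusted p = 1.56e-06).

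Of the translocon, 4 of 4 measured members rose, with a median of 1.51. Sec61a1, the pore itself, was at 9.47, 9.37 and 9.97 in IgE GC cells and within 11.52 to 11.65 on all 4 IgE plasma cell arrays (1.98, SE 0.27, adjusted p = 3.76e-05). Sec63, which recruits the chaperone BiP to the pore, rose by 1.93 (SE 0.17), and Sec61b by 1.08 (SE 0.14). Sec62, used by short substrates, gave 7.61, 8.21 and 7.51 against 8.66, 8.88, 8.71 and 8.37, the smallest difference here (0.88, SE 0.21, adjusted p = 0.00460). One GC array of Sec62 came within a small distance of the lowest plasma cell array. The probe sets of Sec61g, shared with other symbols and not counted, differed by 0.92, 0.80 and 0.74.

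The translocon-associated TRAP complex, which helps certain signal peptides open the pore, rose in all 4 subunits (median 2.13). Ssr4 read 8.48, 9.12 and 9.04 in GC cells and 11.28, 11.42, 11.20 and 11.45 in plasma cells, a difference of 2.46 (SE 0.26, adjusted p = 2.08e-06). Ssr1 had the smallest difference of the 4, 1.42 (SE 0.17, adjusted p = 5.78e-06), with 9.19, 9.22 and 9.60 against 10.73, 10.75, 10.88 and 10.68. Both genes separated the groups fully. Signal peptidase, which cuts the signal off, was the most even group: its 4 members differed by 1.67 to 1.77. Spcs3, an accessory subunit, went from 9.96, 9.81 and 9.88 to 11.75, 11.68, 11.76 and 11.44 (1.77, SE 0.18, adjusted p = 1.13e-06), and Spcs2 from 9.05, 8.96 and 9.07 to 10.57, 10.64, 10.78 and 10.81 (1.67, SE 0.14, adjusted p = 1.52e-07). The catalytic subunit Sec11c rose by 1.70.

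Oligosaccharyl transferase transfers the glycan to asparagine. Here 5 of 6 members rose, and Stt3b did not pass. Ddost, a non-catalytic core subunit, read 8.06, 7.87 and 8.29 in IgE GC cells and 10.79, 10.81, 10.93 and 10.82 in IgE plasma cells (2.76, SE 0.22, adjusted p = 8.14e-08). The subunits Rpn1, Rpn2 and Dad1 rose by 2.01, 1.78 and 1.72, and the catalytic subunit Stt3a, which works beside the translocon as the chain enters, by 2.03. Stt3b, the alternative catalytic subunit that glycosylates sites skipped at entry, lay between 9.95 and 10.09 on the 3 arrays of GC cells and at 10.66, 10.28, 10.35 and 10.65 in plasma cells. Its difference of 0.47 (SE 0.18, adjusted p = 0.0655) was the smallest of all 50 and was not called. The groups did not overlap, and with only the IgE GC and IgE plasma cell groups in the fit it passed (adjusted p = 0.0427).

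Enzymes that supply the glycan rose in 3 of 3 cases. Gfpt1, the first and rate-limiting enzyme of UDP-N-acetylglucosamine synthesis, read 7.22, 7.26 and 7.40 against 9.50, 9.98, 9.76 and 9.98, a difference of 2.51 (SE 0.25, adjusted p = 1.12e-06). Dpagt1, which starts the dolichol-linked glycan, rose by 1.84 (SE 0.29). Alg5, which makes the glucose donor for it, read 7.31, 7.99 and 7.51 against 8.90 to 9.32 (1.51, SE 0.23, adjusted p = 0.000105).

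The COPII coat buds vesicles from the ER, and 6 of its 7 listed genes rose (median 1.56). The largest difference in the whole list was that of Sec24d. It was near the array median in IgE GC cells (5.54, 5.47 and 6.75) and among the well-expressed genes in IgE plasma cells (10.33, 10.02, 9.86 and 10.05), a difference of 4.14 (SE 0.29, adjusted p = 2.30e-08), or 17.7-fold. Naive cells read 4.89, 5.06 and 4.56, at or under the array median. Signals this low are compressed towards the floor, so the fold may be understated. Its paralogue Sec24a rose by 1.84, the inner coat gene Sec23b by 1.53, and the outer coat genes Sec31a and Sec13 by 1.72 and 0.73. Sar1a, a GTPase that starts the coat, rose by 1.56. The second such GTPase, Sar1b, was at 8.84, 8.80 and 8.89 in GC cells and at 9.43, 9.33, 9.92 and 9.39 in plasma cells. Its difference of 0.67 (SE 0.25, adjusted p = 0.0596) was not called, although the groups did not overlap. With only these 2 groups in the fit it passed (adjusted p = 0.0159).

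Cargo receptors load chosen proteins into these vesicles, and 3 of 3 rose (median 2.34). Lman1, a lectin that carries glycoproteins to the Golgi, read 7.60, 7.73 and 8.31 against 10.84, 10.82, 10.75 and 10.68 (2.90, SE 0.34, adjusted p = 6.42e-06). Surf4, a receptor for soluble cargo, rose by 2.34 (SE 0.31). Mcfd2, the partner protein of Lman1, moved less and varied more. Its values were 5.89, 5.90 and 6.23 in GC cells and 7.01, 7.97, 6.44 and 6.81 in plasma cells (1.05, SE 0.28, adjusted p = 0.0115), and the naive arrays read 6.06, 6.16 and 6.99, the highest of them within the plasma cell range.

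Of the p24 family, which packs and sorts cargo in both coats, Tmed10 rose from 9.46, 9.53 and 9.65 to 11.72, 11.47, 11.52 and 11.44 (2.00, SE 0.26, adjusted p = 1.72e-05). Tmed2 rose by 0.78 (SE 0.17, adjusted p = 0.00200), from 9.86, 10.42 and 10.19 to 10.96, 10.91, 10.98 and 10.89. This value depends on the probe set. Tmed2 has 3 of its own, and the brightest, used here, gave the least: the others differed by 1.84 and 2.90. Srp9 too had probe sets that parted, at 1.40 on the one used and 0.77 (adjusted p = 0.0681) on the other, while Tmed10 (2.00 and 1.59) and Sec61b (1.08, 1.07 and 1.57) were called on each.

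KDEL receptors catch ER residents that leaked to the Golgi. Kdelr1 was at 8.63, 8.46 and 8.85 in IgE GC cells and 10.69, 10.61, 10.71 and 10.54 in IgE plasma cells (1.99, SE 0.24, adjusted p = 9.02e-06). Kdelr3 was barely detected. It read 4.35, 4.31 and 4.34 against 5.30, 4.42, 5.35 and 5.72, a fitted difference of 0.86. No naive or GC array was above the array median, so this difference supports no call of its own. One plasma cell array was at the GC level.

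The COPI coat returns vesicles from the Golgi. All 7 genes of this group rose, by less than most others (median 1.10). Arf4, a GTPase of the early Golgi, had the largest difference, from 9.22, 9.09 and 9.05 to between 10.82 and 11.10 on the 4 plasma cell arrays (1.83, SE 0.20, adjusted p = 2.50e-06). The coat subunits proper ranged from Copg1, at 8.07, 8.06 and 8.29 against 8.98, 8.85, 9.58 and 9.02 (0.97, SE 0.28, adjusted p = 0.0161), to Cope (1.70, SE 0.32). Copb1 and Copb2, the COPI genes with the UPR element printed above, rose by 1.10 (SE 0.19) and 1.08 (SE 0.13), near the median of their group, whereas Sec24d with the same element rose the most of all. Golgb1, the giant tether of the Golgi, rose by 0.64 (SE 0.21, adjusted p = 0.0314), with 7.41, 7.22 and 7.53 against 8.08, 7.69, 8.07 and 8.26.

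Markers of the cell state moved in the same comparison. The B cell marker mean was 11.65 to 11.72 on the IgE GC arrays and 9.24 to 9.76 on the IgE plasma cell arrays, and the GC marker mean was 10.37 to 10.44 and 7.58 to 7.99. Macrophage and dendritic cell markers averaged 5.00 to 5.29 on the IgE GC arrays and 5.22 to 5.82 on the IgE plasma cell arrays, with 2 of 7 genes above the array median throughout each group. Of that list Cd68 was called higher in IgE plasma cells, by 1.48 (limma adjusted p = 0.0131), without overlap of arrays. Lyz2, Tyrobp, Siglech and Fcer1g were not called. The part of all these markers in the members' values was not tested.

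The same step in IgG1 cells asked whether the change belongs to 1 isotype. From GFP+ IgG1 GC cells to GFP+ IgG1 plasma cells, 46 of 50 members rose and none fell (45 of 49 without Kdelr3), against 8.32% of all genes called higher and 21.4% in either direction. The median was 1.67, against -0.01 over all genes. Sec24d again led, from 5.20, 4.62 and 4.81 to 9.97 and 9.17 (4.69, SE 0.35, adjusted p = 5.89e-08), followed by Srprb (3.32, SE 0.38), Ssr4 (2.87, SE 0.31) and Lman1 (2.84, SE 0.41). Sec24d was under the array median on every GFP+ IgG1 GC array, so its difference starts from background and its size is uncertain. Without IgG1 plasma cell replicate 1 the count was 37, the lone remaining array being taken to vary like the other groups.

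The 4 members not called in IgG1 cells were Stt3b, Sar1b, Srp14 and Golgb1. Stt3b read 10.14, 9.88 and 9.86 in GFP+ IgG1 GC cells and 10.06 and 9.54 in IgG1 plasma cells, a difference of -0.16 (95% interval -0.60 to 0.28), with the groups overlapping. Golgb1 stood at 7.28, 7.28 and 6.82 against 7.52 and 6.78 (0.02, 95% interval -0.50 to 0.54). Srp14 read 8.97, 9.36 and 9.29 against 9.52 and 9.57 (0.34, SE 0.23, adjusted p = 0.337). For Sar1b the values were 8.28, 9.27 and 8.28 against 9.32 and 9.01 (0.56, SE 0.30, adjusted p = 0.213), and without GFP+ IgG1 GC replicate 2, the high array, it was 0.88 and passed (adjusted p = 0.0304).

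**Figure D2:**
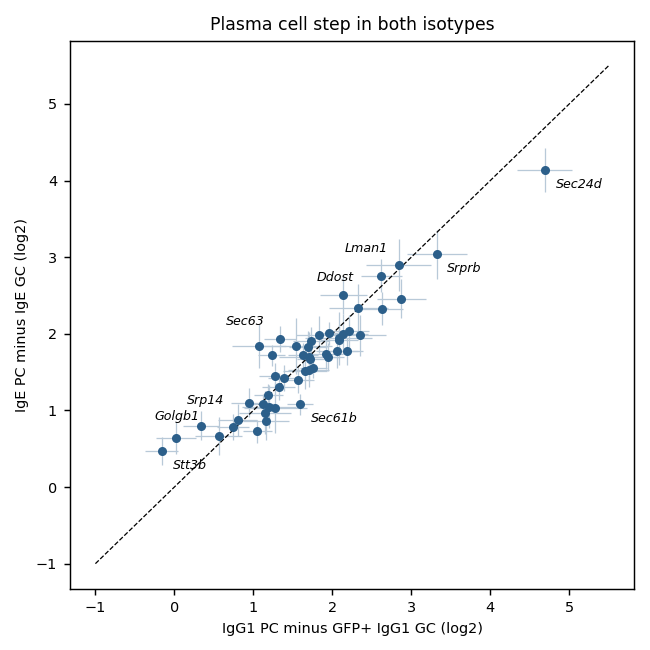
Each of 50 points is a member, placed by its log2 difference from GC to plasma cell in IgG1 cells (horizontal) and IgE cells (vertical), with SE bars from the limma fit and a dashed line of equal change. The points follow the line from Stt3b at the lower left to Sec24d at the upper right, and Golgb1 and Stt3b lie above it.

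The size of the change was close in both isotypes. The steps share no array, and over the 50 members their differences correlated at r = 0.934, against 0.862 over all tested genes (a description across genes, which are not replicates). In 44 members both steps were within 0.5 of each other. The share of all genes within that distance is not given, so this count has no background. No member was called for a difference between the steps, 4 had an unadjusted p under 0.05, and 0.0909% of all genes were called (0.0661% with a more positive IgE step, 0.0248% with a more negative one). The unadjusted 4 were Stt3b (0.63 more in IgE), Sec63 (0.59), Sec31a (0.49) and Sec61b (-0.51), with adjusted p from 0.670 to 0.728. For Sec61b the gap depends on the probe set. Its IgE and IgG1 steps were 1.08 and 1.59 on the one used and 1.07 and 1.54 on another. A further probe set gave 1.57 and 2.44, a wider gap. The isotype difference was not tested on either of these alone. The 95% interval of this difference reached a median of 0.68 to either side, with 2 to 4 arrays a group. That interval is not adjusted for the number of genes. A call after adjustment needed a larger difference still, so isotype differences somewhat above that size could also go uncalled.

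Set directly against each other, IgE and IgG1 plasma cells gave no called member either (3 with unadjusted p under 0.05, 0.959% of all genes called). The largest difference was that of Golgb1, at 8.08, 7.69, 8.07 and 8.26 in IgE and 7.52 and 6.78 in IgG1 plasma cells (0.88, 95% interval 0.38 to 1.37, adjusted p = 0.0841). All 4 IgE arrays lay above both IgG1 arrays. The size rests on the 2 IgG1 arrays: with replicate 2 as the lone IgG1 array it was 1.25 (adjusted p = 0.0271), and with replicate 1 as the lone array 0.51 (adjusted p = 0.560). It was also called when the arrays that stood apart were left out (adjusted p = 0.0388). Dpagt1 differed by 0.70 (adjusted p = 0.373) and Stt3b by 0.69 (95% interval 0.26 to 1.11, adjusted p = 0.119), and each value was smaller with replicate 1 as the lone IgG1 array (0.30 and 0.42). Markers moved in this comparison too. The plasma cell marker Tnfrsf17, the GC markers Gcsam and Mybl1 and Fcer2a, from the naive B cell list, were called higher in IgE plasma cells, by 2.82, 2.48, 1.35 and 2.55. Fcer2a was high in IgE GC cells too (mean 11.16, against 11.91 in naive cells, a difference not called). The T cell marker mean was 4.95 to 5.12 on the IgE and 5.36 and 5.72 on the IgG1 arrays, and the GC marker mean 7.58 to 7.99 and 6.68 to 7.07. Their part in the differences of Golgb1, Dpagt1 and Stt3b was not tested. Between IgE and GFP+ IgG1 GC cells no member and 0.00% of all genes were called. Here 2 members had an unadjusted p under 0.05: Sec24d, higher in IgE GC cells by 1.05 (95% interval 0.39 to 1.71, adjusted p = 1.00), and the signal peptidase subunit Spcs3, by 0.46. Sec24d was under the array median on every GFP+ IgG1 GC array, so its difference is measured from the floor. Among the IgE GC arrays of Sec24d, replicate 3 was the highest, at 6.75 against 5.54 and 5.47 on the other 2. That array also had the highest plasma cell marker mean of its group (7.64, with 7.06 the higher of the others), and the part of this in the difference was not tested. GFP+ and GFP- IgG1 GC cells differed in no member (none at an unadjusted p under 0.05, 0.00% of all genes called), with differences from -0.30 to 0.54.

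Entry into the germinal centre raised part of the list, by less. Against naive cells 27 of 50 members rose in IgE GC cells, 23 in GFP+ and 24 in GFP- IgG1 GC cells, and none fell. Called higher among all genes were 19.3%, 16.8% and 20.5% and called lower 7.40%, 6.43% and 9.35% (26.7%, 23.3% and 29.8% in either direction). These comparisons share the 3 naive arrays and are not separate evidence. The members' medians were 0.73, 0.60 and 0.58, against 0.06, 0.02 and 0.07 over all genes. With only the compared groups in each fit the counts were 15, 7 and 13. After a further quantile normalization 14 were called in GFP+ IgG1 GC cells. The shares of all genes called under these settings are not given. These counts therefore have no background, and whether the members still exceed it there cannot be judged.

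Sar1b and Stt3b, the members not called at the IgE plasma cell step, had the largest differences of the list here. Sar1b read 6.98, 7.46 and 6.48 in naive cells and 8.84, 8.80 and 8.89 in IgE GC cells (1.87, SE 0.26, adjusted p = 5.85e-05). Stt3b read 8.19, 8.58 and 7.91 against 9.95 to 10.09 (1.79, SE 0.19, adjusted p = 2.25e-06). Neither gene's groups overlapped. Lman1 followed with 1.74 (SE 0.36, adjusted p = 0.00189), although its naive arrays spread from 5.10 to 7.30. The glycan enzyme Dpagt1 rose by 1.59, the transferase subunit Rpn2 by 1.56, the TRAP subunits Ssr2 and Ssr1 by 1.43 and 1.33, and the COPI subunits Cope, Copz1, Copa and Copb2 by 1.39, 1.38, 1.13 and 1.12. Cope and Copz1 rest largely on naive replicate 1, an array that stood apart: their naive values were 6.40, 8.18 and 8.22 and 6.14, 8.34 and 7.70, and without it the differences were 0.79 and 0.75, both still called.

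Several members that rose at the plasma cell step were not called at GC entry. For Srprb the difference was -0.01 (SE 0.34, 95% interval -0.73 to 0.72), for Sec63 -0.26, for Sec31a -0.20, for Sar1a 0.16 and for Dad1 0.18. Signal peptidase was called in 4 of 4 members (0.63 to 0.82), though Sec11c was not without naive replicate 1 (0.40, adjusted p = 0.0822), and nor was the pore gene Sec61a1 (0.86 with it, 0.44 without, adjusted p = 0.202). Some marker means of other cell types were higher on the naive arrays. Macrophage and dendritic cell markers averaged 5.53 to 6.26 there against 4.86 to 5.29 on the GC arrays. Stromal and endothelial markers averaged 6.10 to 6.54 against 5.48 to 5.83. Of the tested genes of that list, Pecam1 averaged 9.56 on the naive arrays, Col1a1 6.40, Col1a2 5.77 and Cdh5 4.83. Within these lists the genes split. From naive to IgE GC cells Tyrobp (-2.78), Siglech (-1.73), Fcer1g (-1.65) and Pecam1 (-2.38) were called lower. Col1a1 (-0.41) and Col1a2 (-0.25) were not called. Cd68 (1.12), Lyz2 (0.35) and Cdh5 (0.17) went the other way, also without a call. What that contributes to the members' values was not tested.

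**Figure D3:**
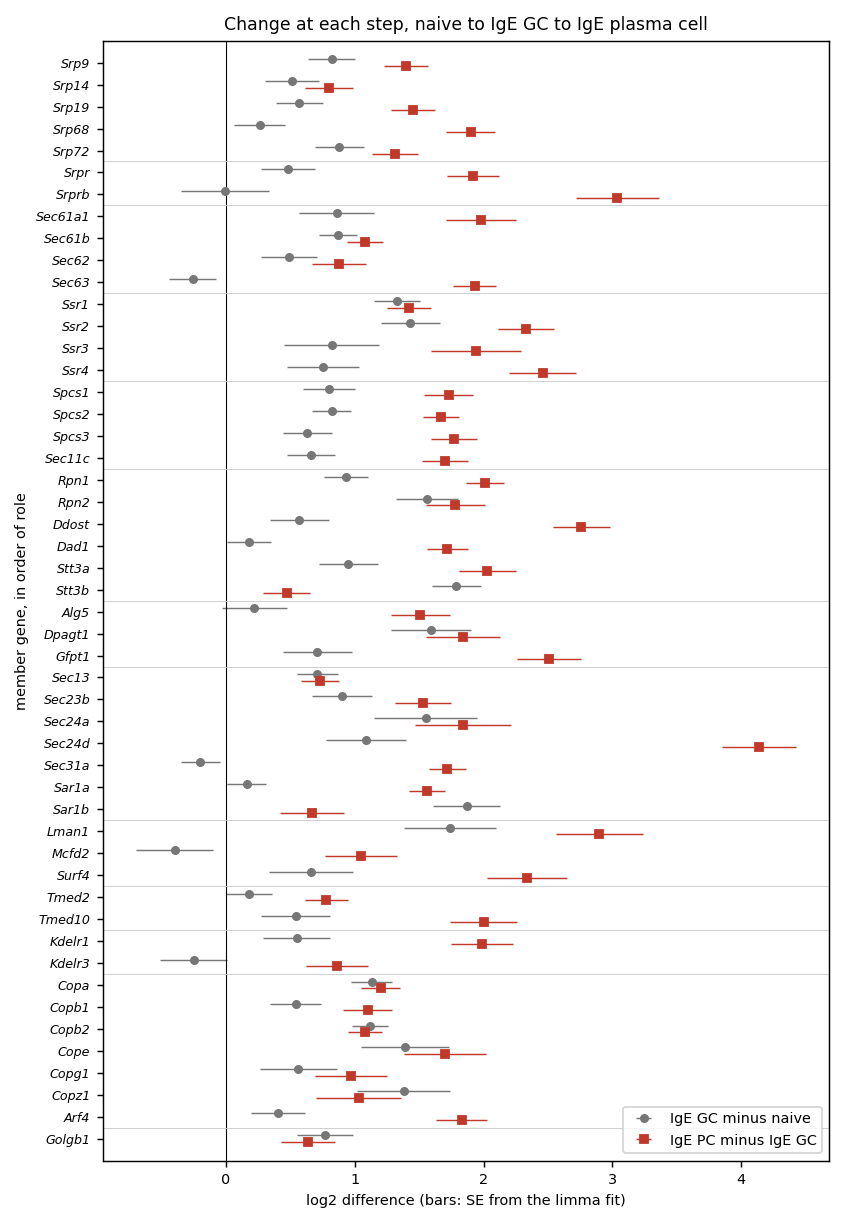
For each of 50 members (rows, in order of role) the grey circle is the log2 difference from naive to IgE GC cells and the red square that from IgE GC to IgE plasma cells, with SE bars from the limma fit. Most red squares lie to the right of the grey circles, Sec24d farthest at 4.14, while for Stt3b, Sar1b, Copz1, Golgb1 and Copb2 the order is turned, a difference between the steps that was called only for Stt3b.

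Whether the plasma cell step exceeded the entry step was tested as a contrast of the steps, added after the values had been seen. For 21 members the second step was the larger and for 1 the first, against 6.41% and 15.9% of all genes (22.3% together). Among them were Srprb (3.05, SE 0.58, adjusted p = 0.00107) and Sec24d, for which the contrast gave 3.06, a size that is uncertain because none of its naive arrays was above the array median and its first step is measured from the floor. They were followed by Sec63 (2.19, SE 0.30), Ddost (2.19, SE 0.40) and Sec31a (1.92, SE 0.26). The gene with the larger first step was Stt3b (-1.32, SE 0.32, adjusted p = 0.00595). Because IgE GC arrays enter both steps, the contrast was repeated with GFP- IgG1 GC cells in the first step, which shares no array with the second. It called 28 members for a larger second step and 2, Stt3b (-1.38) and Sar1b (-1.04, adjusted p = 0.0354), for a larger first step, with 11.9% and 22.3% of all genes (34.2% together). Kdelr3 (1.02) is among the 28, although it entered the test only through plasma cell arrays. Its larger second step was thus built in and supports no call of its own. The count of 22 fell to 12 without IgE GC replicate 1 and to 14 without IgE GC replicate 2.

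Members with a paralogue in the list were then set side by side as changes from their own baseline, with isotypes pooled (6 plasma cell arrays, 9 or 6 GC arrays, 3 naive arrays). The pairs were picked after their values were seen, so the numbers are a description with no test. At GC entry Stt3b changed by 1.79 and Stt3a by 0.86, and at the plasma cell step Stt3b by 0.27 and Stt3a by 2.13. The means of the Sar1 pair went the same way, with 1.74 for Sar1b and 0.15 for Sar1a at entry and 0.67 and 1.65 at the plasma cell step, but at that step the gap between the genes overlapped between plasma cell and GC arrays. Sec24a changed by 1.41 and 1.77, and Sec24d, from near the floor, by 0.43 and then 4.50. Here the entry step rests on naive replicate 1, where Sec24a read 5.62 and on neither of the other 2 arrays under 7.26: without it the difference between the pair's changes at entry went from -0.98 to -0.28. For the KDEL receptors, Kdelr1 changed by 0.52 and then 1.90, and Kdelr3, near the floor, by -0.19 and then 0.94, with overlap at both steps. On each array the gap between Stt3a and Stt3b was wider in favour of Stt3a in plasma cells than on any GC array. Over the arrays left out in turn, the difference between the pair's changes at entry ran from -1.13 to -0.77 for Stt3a and Stt3b and from -1.77 to -1.32 for Sar1a and Sar1b, and at the plasma cell step from 1.71 to 1.94 and from 0.87 to 1.10. For Sec24d and Sec24a the ranges were -1.39 to -0.28 and 2.53 to 2.96, and for Kdelr1 and Kdelr3 0.61 to 0.82 and 0.78 to 1.08.

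**Figure D4:**
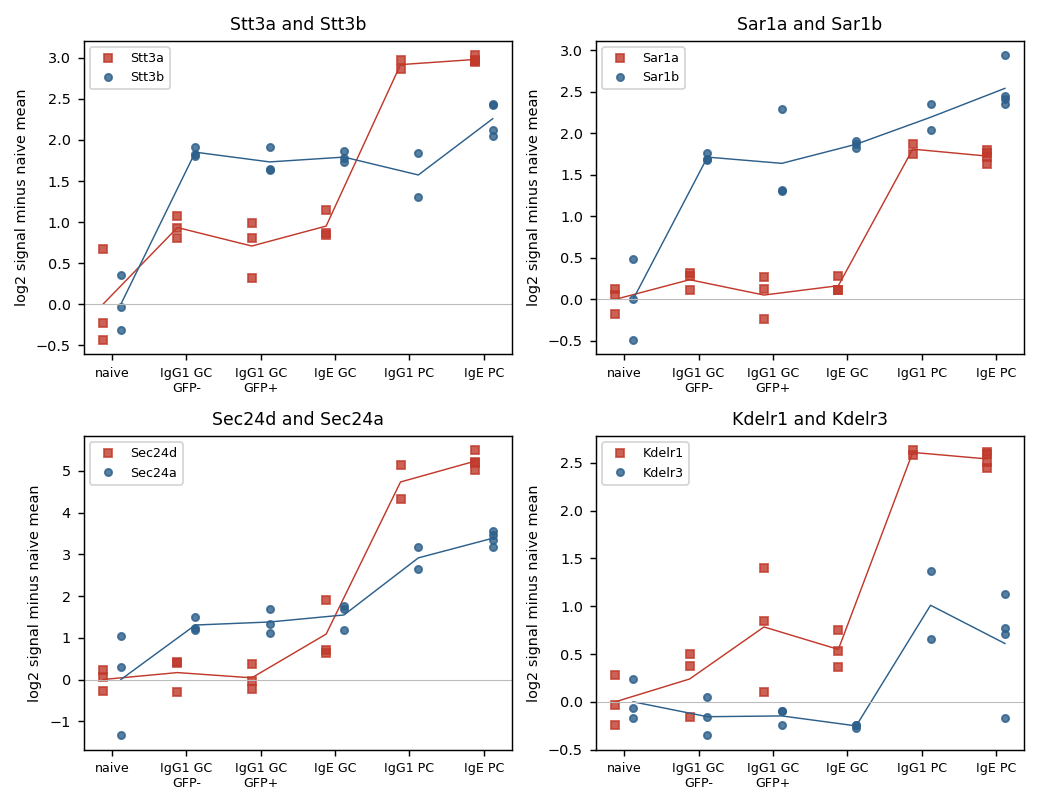
Each panel plots a pair of paralogues on the 18 arrays of the first experiment, as log2 signal minus that gene's own naive mean, with a point per array and lines through the group means. Stt3b and Sar1b climb from naive to GC and little after, Stt3a and Sar1a climb from GC to plasma cell, and Sec24d reaches about 5 above its naive level.

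Measured from naive to plasma cell, the whole path raised 48 of 50 members in IgE and 48 in IgG1 plasma cells (23.0% and 17.1% of all genes called higher, 37.0% and 29.3% in either direction). Kdelr3 is again among the 48 of IgG1 cells. The median differences were 2.40 and 2.27.

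Other genes of the same pathway, 121 from textbook lists, gave the members a frame, and 109 of them were tested. At the IgE plasma cell step 64 rose and 3 fell (median 0.93), and at the IgG1 step 52 rose and none fell (median 0.84). By list, of further ER entry genes 5 of 17 rose and 1 fell, of N-glycosylation genes 22 of 37 rose, of COPII and ER exit genes 18 of 24 rose, and of COPI and Golgi genes 19 of 31 rose and 2 fell. Creb3l2 and Copz2 entered these tests only through plasma cell arrays, and without them 62 and 50 of 107 rose. Creb3l2, an ER-bound transcription factor known to act on COPII genes, read 4.44, 4.59 and 4.89 on the IgE GC arrays, under the array median, and 9.16 to 9.44 on the IgE plasma cell arrays. Its fitted difference of 4.63 (5.00 in IgG1) starts from background, so its size is uncertain. Among genes measured on both sides, the largest differences were those of the ER-Golgi SNARE Bet1 (3.11, 3.05 in IgG1), the p24 protein Tmed3 (2.81, 2.63 in IgG1) and the translocon-associated Tram2 (2.74, 3.07 in IgG1). Gmppa, of GDP-mannose supply, rose by 2.37, the ER mannosidase Man1b1 by 2.27, and Arfgap3, which acts on Arf GTPases at the Golgi, by 2.37. Tmem258, a further transferase subunit, rose by 1.29 in IgE cells but had 0.53 in IgG1 cells (adjusted p = 0.461). The 3 that fell in IgE cells were Get1, an insertion factor for tail-anchored proteins (-1.19), Copg2, the paralogue of the coat subunit Copg1 (-1.07), and the SNARE Bnip1 (-0.73).

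Dark and light zone cells of the IgG1 germinal centre differed in few members. Of 48 tested, 3 were higher in the dark zone and none lower, a share of 6.25%, while 6.91% of all 11050 genes were called (3.92% higher), so the count is near the background. The median difference was 0.16, against 0.00 over all genes. An unadjusted p under 0.05 was found for 17 members, with no share of all genes at that threshold to set beside it. Of the 3, 2 belong to the signal recognition particle and the third is the cargo receptor Lman1.

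Srp19, which helps assemble the particle on its RNA, ran from 7.95 to 8.34 with a median of 8.19 on the 6 dark zone arrays, and from 7.29 to 7.70 with a median of 7.49 on the 6 light zone arrays. No array overlapped, and the difference was 0.68 (SE 0.10, adjusted p = 0.00157). Lman1 ranged from 7.34 to 7.95 in dark zone and from 6.65 to 7.30 in light zone cells, just without overlap (0.68, SE 0.13, adjusted p = 0.00702). Srp14 ranged from 9.18 to 10.02 and from 8.43 to 9.17, again with adjacent extremes (0.61, SE 0.14, adjusted p = 0.0242). The Srp14 call was lost without GFP+ light zone replicate 2 (adjusted p = 0.0563) or replicate 3 (0.0553) or GFP+ dark zone replicate 3 (0.0556).

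**Figure D5:**
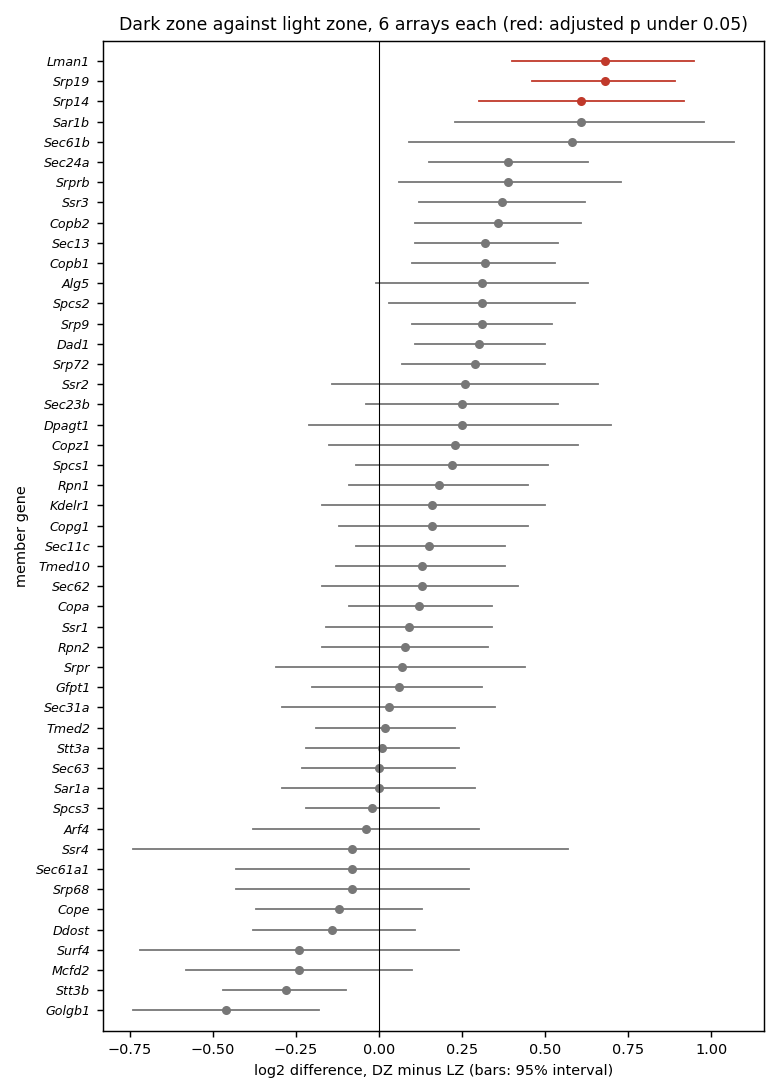
Points are log2 differences, dark minus light zone, of the 48 tested members with 95% intervals from limma, over 6 arrays per zone, sorted by size. Lman1, Srp19 and Srp14, in red, are the called genes, 36 points lie above 0, and Golgb1 and Stt3b sit at the bottom with -0.46 and -0.28.

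Some members came close to the threshold. Sar1b differed by 0.61 (adjusted p = 0.0550) and Sec24a by 0.39 (adjusted p = 0.0578), with every dark zone array of Sec24a above every light zone array. Golgb1 differed by -0.46 (adjusted p = 0.0535) and Stt3b by -0.28 (adjusted p = 0.0696). For Stt3b all 6 dark zone arrays (9.98 to 10.25) lay below all 6 light zone arrays (10.31 to 10.43). After a further quantile normalization Golgb1 and Stt3b were called lower (adjusted p = 0.0273 and 0.0401). Markers moved with the zones as well. Of the GC list, Gcsam and the proliferation gene Mki67 were called higher in the dark zone by 1.03 and 0.63, and of the plasma cell list Jchain and Xbp1 by 0.94 and 0.39. Irf4 (-1.28), Fcer2a (-0.96) and Pecam1 (-0.55), from the stromal and endothelial list, were called lower. The GC marker mean was 10.26 to 10.45 on dark zone and 9.87 to 10.13 on light zone arrays, that of plasma cell markers 6.37 to 6.83 and 6.57 to 6.83, and that of T cell markers, none of them called, 5.22 to 5.99 and 5.73 to 6.21. Their part in the members' zone differences was not tested. The zone difference did not depend detectably on GFP: no member was called for the interaction (1, Spcs3, at an unadjusted p under 0.05) and 0.00% of all genes. GFP within the zones gave no called member, none at an unadjusted p under 0.05 and 0.00% of all genes, with differences from -0.26 to 0.28. Sec24d read 4.43 to 5.38 and Kdelr3 4.11 to 5.13 over the 12 zone arrays, under the level needed for a test.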

How the data were processed

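Biotin-labelled cDNA, amplified from 2 ng of RNA per sample per the labels' protocols, was hybridised to Affymetrix Mouse Gene ST arrays. Per the submitters' processing notes, the authors used R 2.15.2 and robust multi-array averaging (RMA), which corrects background, equalises the distributions of the arrays and summarises probes, so the deposited values are log2 signals. The sources used here do not say whether both experiments shared 1 normalization, and levels were compared within an experiment only. Files held 34760 probe sets on 30 arrays; 21640 probe sets had 1 gene symbol, 1321 several and 11799 none, and those with several or none were left out. A gene was represented by its brightest single-symbol probe set over the 30 arrays, and tested if above the array median on at least 2 arrays of the first or 3 of the second experiment, which left 12098 and 11050 genes. Symbols came from the platform annotation.

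Differences were fitted with limma 3.58.1 (lmFit and eBayes, R 4.3.3) on all arrays of an experiment, as group means with no covariate, with Benjamini-Hochberg adjustment of the p-values over every tested gene. The procedure was tested on simulated data with known changes. There were 14 comparisons, 2 of them interactions. Counts of members at an unadjusted p under 0.05 are given without the share of all genes at that threshold, so they have no background. Depth does not apply to arrays, and their number limits the precision. Amplification may add spread between arrays. Members and gene lists were chosen with earlier results of these data known. Values per array are given for the member with the largest and the smallest difference between IgE plasma and IgE GC cells in each role, for members called in an isotype, zone or GFP comparison, for members too low to test, and, chosen after their values were seen, for a few others. From each list of other pathway genes the 2 with the largest absolute difference are named, and those that fell. Replicate numbers were checked for pairing by correlating deviations from group means. The rule asked that every same-number correlation be over 0.1, in at least 3 pairs. It paired GFP+ and GFP- IgG1 GC arrays (0.11 to 0.15 over 3 pairs) and no other groups. In several other comparisons arrays still correlated best with their own number, though weakly. Such were IgE plasma against IgE GC cells (0.05 to 0.09), IgG1 plasma against GFP+ IgG1 GC cells, and IgE against IgG1 plasma cells. So were IgE GC against naive cells, GFP+ dark against GFP+ light zone, and GFP+ against GFP- cells of each zone. A weak pairing there is thus not excluded, and the main tests did not use it. Alternatives were no filter, the mean of probe sets, a further quantile normalization, a mean-variance trend, the compared groups alone, a replicate block, and leaving out arrays. Promoters came from RefSeq. Figures were drawn with matplotlib 3.10.9 in python 3.11.15.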

Additional observations from a re-analysis of the deposited data

Results flagged for a closer look

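Of the 50 members, each looked at over the 4 IgE plasma cell arrays (the only group of more than 3), 2 had a lone array: its gap to the nearest other array, over the whole range, passed Dixon's 95% critical value for a group of 4. For Srp9, replicate 4 was at 10.45 and the other 3 arrays at 10.64 to 10.67 (ratio 0.877). For Sar1b, replicate 3 was at 9.92 and the others at 9.33 to 9.43 (ratio 0.834). About 1 group in 20 passes by chance alone, so 2 of 50 is no excess.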

How the results depend on the processing

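No value of a called member changed direction: of 3859 values of called members under the alternatives, 3624 kept their call, 235 did not pass and 0 reversed. Counts of members under the alternatives, also with single arrays left out, are given without the share of all genes called. They therefore have no background. The counts of members called moved by more than 1.5 times in these cases. With only the compared groups in the fit, 15 members were called in IgE GC against naive cells, 7 in GFP+ and 13 in GFP- IgG1 GC against naive cells. After a further quantile normalization 14 were called in GFP+ IgG1 GC against naive cells and 5 between the zones (3 higher, 2 lower), and with a mean-variance trend 6 between the zones (5 higher, 1 lower). IgE against IgG1 plasma cells gave 1 without the arrays that stood apart. The cause was not tested.

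Leaving out single arrays gave 44 to 47 members at the IgE plasma cell step, 37 to 44 at the IgG1 step, 0 to 1 for IgE against IgG1 plasma cells (1 without IgG1 plasma cell replicate 1), 48 to 49 for IgE and 47 to 48 for IgG1 plasma against naive cells, 21 to 32, 17 to 23 and 19 to 30 for IgE, GFP+ IgG1 and GFP- IgG1 GC against naive cells, 2 to 5 between the zones (5 without GFP+ dark zone replicate 2), and 12 to 26 for the contrast of the steps (12 and 14 without IgE GC replicate 1 and 2). The isotype interaction, both GC comparisons among isotype and GFP groups, and the GFP terms in the zones stayed at 0. With the replicate block the IgE plasma cell step gave 47, the IgG1 step 46, the zones 4 and the contrast of the steps 18, and the comparison of GFP+ with GFP- IgG1 GC cells, whose arrays pair, still 0; it changed no count by more than 1.5 times. Dim genes limit these data: Kdelr3 in all groups and Sec24d outside plasma cells lie near the array median, where differences are compressed.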

Other observations

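Of the further genes of the pathway, 23 of 109 rose in IgE GC cells against naive cells and 3 fell (median 0.42), near the background of 19.3% and 7.40% of all genes called higher and lower. Magt1, a subunit that works with Stt3b in the oligosaccharyl transferase, led with 1.83 (SE 0.32, adjusted p = 0.000485). It was followed by the SNARE Ykt6 (1.68, SE 0.35, adjusted p = 0.00176) and the ER-Golgi cargo protein Ergic1 (1.65, SE 0.25, adjusted p = 0.000110). The 3 lower genes were Alg1 and Dolk, which build and supply the dolichol-linked glycan (-0.92 and -0.97), and the SNARE Use1 (-0.71). Between the zones 3 of 107 were higher in the dark zone, no larger a share than the 3.92% of all genes called higher: the translocon-associated Tram2 (0.85, SE 0.20, adjusted p = 0.0266), the glucosyltransferase Alg10b (0.58, SE 0.14, adjusted p = 0.0237) and Nsf, which takes SNARE complexes apart (0.42, SE 0.11, adjusted p = 0.0328). For Tram2 no dark zone array overlapped a light zone array. These genes were picked here for their size after their values were seen.

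The probe sets that Srp54a, the GTPase of the signal recognition particle, shares with Srp54b and Srp54c did not move alike: at the IgE plasma cell step they differed by -0.32 and 0.92, and at the IgG1 step by 0.49 and 0.80.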
